A study of Homo sapiens with 10 samples.

Results

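The genes described here encode the classical guidance cues and their receptors: semaphorins, plexins, neuropilins, ephrins, Eph receptors, slits, robos, netrins and the UNC5 family. Members were chosen by platform gene symbol alone, with no use of the measured values, and 94 of the 25750 probe sets carried such a symbol, for 53 of the 12082 genes named on the array table. Of these, 56 probe sets for 38 genes passed the filter on dim signals and were tested, and 38 probe sets did not. No probe set carried the symbol DCC, so that netrin receptor was not analysed here.

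MDA-MB-231 is a human breast cancer cell (BCC) line of basal-like type, established from a metastatic site. All BCCs carried the same construct, pEGFP1-Oct3/4, in which the Oct4A promoter drives green fluorescent protein (GFP), and all had passed neomycin selection. Oct4hi BCCs were the top 5% for GFP (4 arrays), Oct4med BCCs lay between the extremes (2 arrays) and Oct4low BCCs were the lowest 5% (4 arrays), each array taking 100 ng of total RNA on the Affymetrix U133 Plus 2.0 format. These gates are those of the labels, and the study's results describe other widths for Oct4med and Oct4low BCCs. No treatment was given. The sort reads promoter activity of a transgene, and the Oct4 transcript was not analysed here. The labels call the arrays biological replicates of 1 cell line, so p-values measure the spread between such samples of 1 line, and in sorted bulk RNA fewer expressing cells and less RNA per cell cannot be told apart.

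Guidance cues were first known from growing axons, which they attract or repel. Secreted class 3 semaphorins bind a neuropilin co-receptor, and a plexin in the same complex carries the signal by acting on small GTPases and the cytoskeleton, whereas membrane semaphorins mostly bind plexins directly. Ephrins are tethered to the cell surface and signal to Eph receptor tyrosine kinases on neighbouring cells, and ephrin-B proteins also signal backwards into the cell that bears them. Slits repel cells through robo receptors, and netrins act through DCC, neogenin and UNC5 receptors. The same systems shape blood vessels and mammary ducts and have been studied for their part in the migration of breast cancer cells.

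Every array value below is the deposited log2 intensity of a probe set, and every difference is on that log2 scale, so that a lower value is a lower level. The deposited table had been preselected by its authors on signal and on change between arrays, and no row in it varied by less than 0.296 over the 10 arrays, so every share of all tested probe sets given below is a share of that preselected set. Array medians were 5.05 to 5.14. Arrays of the same subset correlated at r of 0.987 to 0.994 over all probe sets and arrays of different subsets at 0.957 to 0.981. The basal and mesenchymal markers of the line were represented by 6 of 8 genes, of which 4, among them CD44 and CAV1, lay above the array median in all 10 arrays, whereas the 1 probe set of VIM lay below it in all 10 and that of MSN lay above it in 1. Of 8 luminal markers 7 were measured. ESR1, GATA3 and ERBB3 lay above the median in all 10 arrays and TFF1 in 9, and CDH1, PGR and AGR2 lay below the median in all arrays. Genes of other lineages lay above it in all 10 arrays too: 2 of 5 measured leukocyte markers (CD3E and CD79A), 3 of 5 neural and 1 of 2 erythroid ones (HBB). Of the same lists 2, 2 and 1 lay below it in all arrays. Of 6 fibroblast markers 3 lay above the median in all 10 arrays and 3 below it in all. The neural marker TUBB3 was bright, with subset means of 11.64 to 11.99, whereas CD3E averaged 5.27 to 5.50 and CD79A 5.59 to 5.90. A level a little above the median, as for CD3E and CD79A, therefore does not show that a gene is expressed. The same holds for guidance probe sets near the median. The summed luminal level was 35.02 to 35.34 in Oct4hi BCCs, 35.43 to 35.92 in Oct4med BCCs and 36.40 to 37.18 in Oct4low BCCs, with GATA3 lower in Oct4hi than in Oct4low BCCs (adjusted p = 7.27e-05). The basal sum moved too, at 48.37 to 48.98 in Oct4hi, 49.35 to 49.56 in Oct4med and 49.07 to 49.30 in Oct4low BCCs. Of 6 endothelial markers, which bear on genes such as NRP1 and ROBO4, 4 were measured. PECAM1 and CLDN5 lay above the median in all 10 arrays and KDR and TEK below it in every array, and the sums of the 4 overlapped between Oct4hi (20.48 to 21.43) and Oct4low BCCs (20.99 to 21.51). PECAM1 averaged 7.47 in Oct4hi, 8.12 in Oct4med and 7.93 in Oct4low BCCs, with an adjusted p of 3.39e-04 between Oct4hi and Oct4low BCCs. One 28S ribosomal RNA control probe set read 12.64 and 12.77 on the Oct4med arrays, against 13.54 to 13.60 on the Oct4hi arrays and 13.53 to 13.70 on the Oct4low arrays. The part of these shifts in the results below was not tested.

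The first comparison asked which guidance genes differed between BCCs at the extremes of Oct4A promoter activity. In Oct4hi BCCs the secreted semaphorin SEMA3C, the co-receptor NRP1, the plexin PLXNA1 and the slit receptor ROBO1 were lower, while the semaphorins SEMA5A and SEMA7A, the other neuropilin NRP2, the plexins PLXNC1 and PLXNA2 and the receptor EPHA4 were higher. Of the 56 tested guidance probe sets, 27 differed between Oct4hi and Oct4low BCCs (48.2%), 11 higher and 16 lower, by limma with Benjamini-Hochberg adjustment over all 13883 tested probe sets. Of all tested probe sets 34.8% differed in the same comparison, 18.2% higher and 16.7% lower. The guidance calls spanned 0.33 to 0.95 upward, in 6 genes, and -1.34 to -0.2 downward, in 13 genes. Of the 27, 5 passed the filter on dim signals only through the subset in which they were high, or with Oct4med arrays beside it, so that a difference was built into their selection: probe sets 229427_at of SEMA5A, 222877_at of NRP2, 203788_s_at of SEMA3C, 244746_at of SEMA6D and the one of SEMA6B. With a filter on the mean over all 10 arrays instead, 24 of 51 guidance probe sets differed (47.1%), where 36.5% of all did. A change of at least 0.5 was called for 4 guidance probe sets upward and 6 downward, whereas 4.27% and 5.11% of all tested probe sets passed those limits. The upward ones include 229427_at of SEMA5A and 222877_at of NRP2, and the downward ones 203788_s_at of SEMA3C, whose difference was built into their selection. These counts are therefore a description beside the shares. The median change was -0.11 over the 56 probe sets and -0.00 over all tested, and the median size of change was 0.23 and 0.18.

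The 2 Oct4med arrays were then set against the same Oct4low arrays and against the Oct4hi arrays. Between Oct4med and Oct4low BCCs 12 of 56 guidance probe sets differed (21.4%), 6 in each direction, where 20.6% of all tested probe sets did. The 6 higher calls were 0 without Oct4med replicate 2, 2 without Oct4med replicate 1, 1 with array weights and 2 with the methods' t-test, while the lower calls numbered 6, 4, 6 and 5 in these settings. Between Oct4hi and Oct4med BCCs 26 of 56 differed (46.4%), 13 in each direction, where 26.7% of all tested probe sets did. The even split became 5 higher and 8 lower without Oct4med replicate 1 and 5 higher and 10 lower with the methods' t-test. Of the 26 calls between Oct4hi and Oct4med BCCs, 2 reached the array median in only 1 of the subsets compared, so that a difference was built into their selection. These were 229427_at of SEMA5A and the probe set of SEMA6B. With the filter on the mean over all 10 arrays, 25 of 51 guidance probe sets differed in this comparison (49%), where 28.5% of all did. The background itself leaned one way. For Oct4med against Oct4low BCCs 5.19% of all tested probe sets stood higher and 15.5% stood lower, and for Oct4hi against Oct4med BCCs the shares were 18.1% and 8.6%. That lean depended on scaling: after a further quantile normalization 1375 stood higher and 1805 stood lower for Oct4med against Oct4low BCCs, in place of 720 and 2145, and for Oct4hi against Oct4med BCCs the counts were 1719 and 1619, in place of 2516 and 1194. Bringing all arrays to one median gave 2644 and 772 for Oct4hi against Oct4med BCCs. The guidance counts rested on a pair of Oct4med arrays: without Oct4med replicate 1 the calls were 6 against Oct4low BCCs and 13 against Oct4hi BCCs, and without Oct4med replicate 2 they were 6 against Oct4low BCCs and 29 against Oct4hi BCCs.

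**Figure D1:**
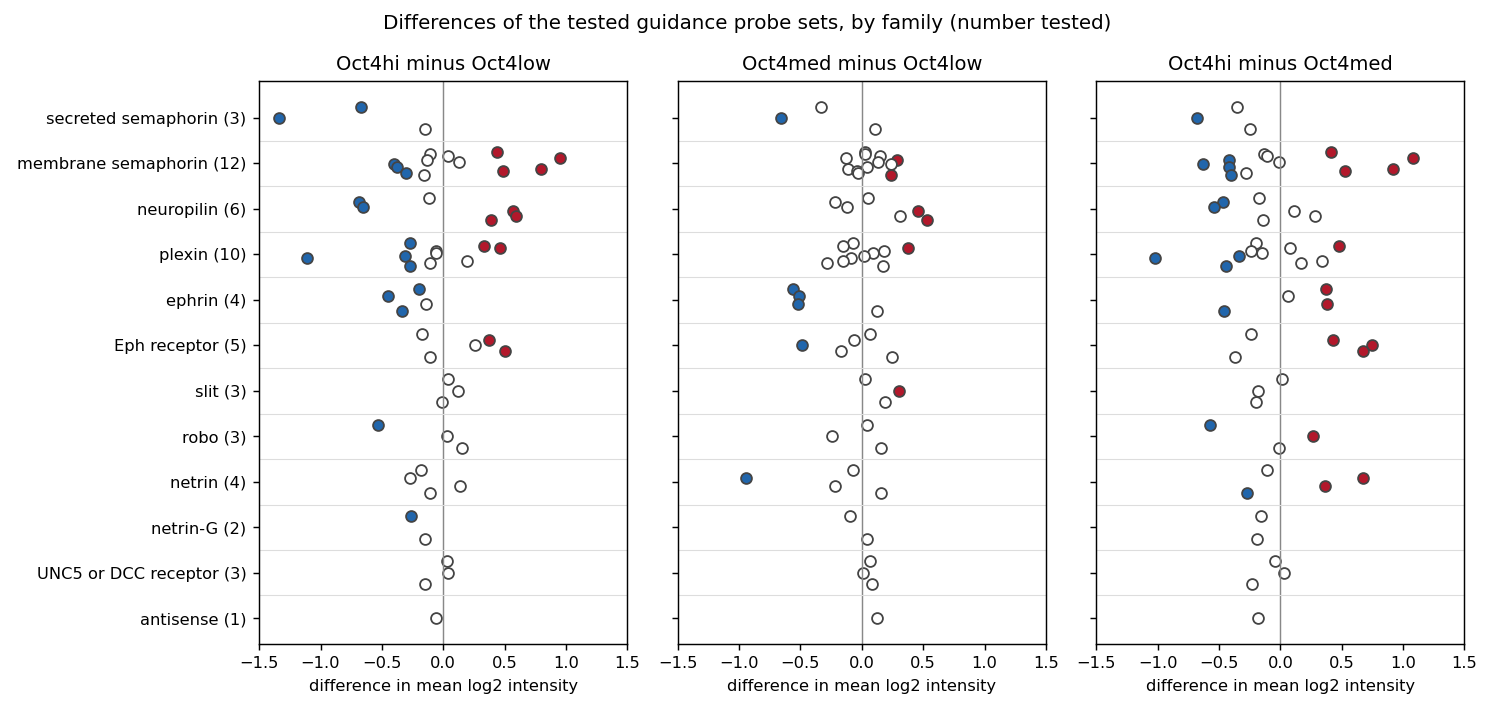
Difference in mean log2 intensity (x axis) of each tested guidance probe set, by family (y axis, with the number tested), for Oct4hi minus Oct4low, Oct4med minus Oct4low and Oct4hi minus Oct4med BCCs. Filled points passed an adjusted p of 0.05 and open points did not; the called ephrins lie left of 0 in both comparisons with Oct4low BCCs, and the plexins and neuropilins lie on both sides.

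Among the plexins, the transducing receptors, PLXNA1 had the largest reduction. PLXNA1 (probe set 221538_s_at) read 10.72, 10.81, 10.77 and 10.81 in Oct4hi BCCs, 11.80 and 11.80 in Oct4med BCCs, and 11.85, 11.82, 11.96 and 11.92 in Oct4low BCCs. All 4 Oct4hi arrays lay about a whole log2 unit below the other arrays, and the Oct4med arrays lay just under the Oct4low ones. The change was -1.11 (SE 0.07, adjusted p = 2.55e-07) between Oct4hi and Oct4low BCCs, or 0.463 of the Oct4low level, and -1.02 (SE 0.08, adjusted p = 4.70e-06) between Oct4hi and Oct4med BCCs. Between Oct4med and Oct4low BCCs it was -0.09 (adjusted p = 0.431). The second PLXNA1 probe set, 221537_at, had the same directions with smaller changes, -0.31 (adjusted p = 0.00615) against Oct4low BCCs and -0.34 (adjusted p = 0.0169) against Oct4med BCCs, and the last call was lost without Oct4med replicate 1 (adjusted p = 0.146).

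PLXND1, a plexin that binds SEMA3E and is best known from blood vessels, read 9.08, 9.11, 9.07 and 9.12 in Oct4hi BCCs, 9.55 and 9.51 in Oct4med BCCs, and 9.38, 9.34, 9.37 and 9.35 in Oct4low BCCs. Its lowest values were thus in Oct4hi BCCs and its highest in Oct4med BCCs, with no overlap between any of the subsets. It fell by 0.27 against Oct4low BCCs (adjusted p = 0.00555) and by 0.44 against Oct4med BCCs (adjusted p = 0.00151), and the difference between Oct4med and Oct4low BCCs was 0.17 (adjusted p = 0.122). PLXNB3 was also lower in Oct4hi than in Oct4low BCCs (-0.27, adjusted p = 0.0121). Neither probe set of PLXNB1, the receptor for SEMA4D, passed the test in any comparison (changes of -0.24 to 0.18).

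PLXNC1, the receptor for SEMA7A, moved the other way in 1 of its 2 tested probe sets. That probe set, 213241_at, read 6.33, 6.36, 6.32 and 6.27 in Oct4hi BCCs, 6.18 and 6.28 in Oct4med BCCs, and 5.80, 5.88, 6.03 and 5.72 in Oct4low BCCs. The Oct4hi and Oct4med arrays all lay above the Oct4low arrays. The change was 0.46 (SE 0.08, adjusted p = 9.27e-04) for Oct4hi against Oct4low BCCs and 0.38 (SE 0.10, adjusted p = 0.0156) for Oct4med against Oct4low BCCs. The Oct4med call was lost without Oct4med replicate 2 (adjusted p = 0.0874), and the other probe set, 235328_at, gave -0.11 and -0.28 for the same comparisons, neither called. PLXNA2, which pairs with neuropilins and with SEMA6A, was higher in Oct4hi BCCs by its probe set 213030_s_at, by 0.33 against Oct4low BCCs (adjusted p = 0.00652) and by 0.48 against Oct4med BCCs (adjusted p = 0.00401), the second without a call when Oct4med replicate 1 was left out (adjusted p = 0.0619). Its other probe set was not called (0.19 and 0.34).

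The neuropilins, which hold the class 3 semaphorins and also bind vascular endothelial growth factor, split in opposite directions. NRP1 (212298_at) read 11.61, 11.72, 11.57 and 11.58 in Oct4hi BCCs, 12.08 and 12.23 in Oct4med BCCs, and 12.38, 12.21, 12.34 and 12.16 in Oct4low BCCs. All Oct4hi values were the lowest of the 10, and the Oct4med values fell within or just under the Oct4low range. NRP1 fell by 0.65 against Oct4low BCCs (SE 0.08, adjusted p = 8.07e-05) and by 0.54 against Oct4med BCCs (SE 0.09, adjusted p = 0.00177), with -0.12 between Oct4med and Oct4low BCCs (adjusted p = 0.4). Its second probe set, 210510_s_at, gave -0.69 (adjusted p = 1.05e-05), -0.47 (adjusted p = 0.0011) and -0.22 (adjusted p = 0.0659) in the same order of comparisons.

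NRP2 (214632_at) read 5.92, 6.03, 5.68 and 5.92 in Oct4hi BCCs, 5.71 and 5.84 in Oct4med BCCs, and 5.45, 5.36, 5.06 and 5.40 in Oct4low BCCs. The Oct4hi and Oct4med values overlapped, and every one of them was above every Oct4low value. The change was 0.57 (SE 0.10, adjusted p = 0.00143) for Oct4hi and 0.46 (SE 0.13, adjusted p = 0.024) for Oct4med, both against Oct4low BCCs. With array weights and with the methods' t-test the second call was lost (adjusted p = 0.0569 and 0.142). Without Oct4med replicate 1 or replicate 2 the second had an adjusted p of 0.0646 or 0.12. Of the 3 other tested NRP2 probe sets, 222877_at gave 0.59 for Oct4hi against Oct4low BCCs but reached the array median on 3 arrays, all Oct4hi, so this is given as a description. Probe set 229225_at was higher in Oct4hi (0.39, adjusted p = 0.0195) and in Oct4med BCCs (0.53, adjusted p = 0.0194), and 1555468_at was not called (-0.12 and 0.05). The 229225_at calls were lost when Oct4low replicate 3 was left out for Oct4hi (adjusted p = 0.0578) and when Oct4med replicate 1 or replicate 2 was left out for Oct4med (adjusted p = 0.105 and 0.066).

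**Figure D2:**
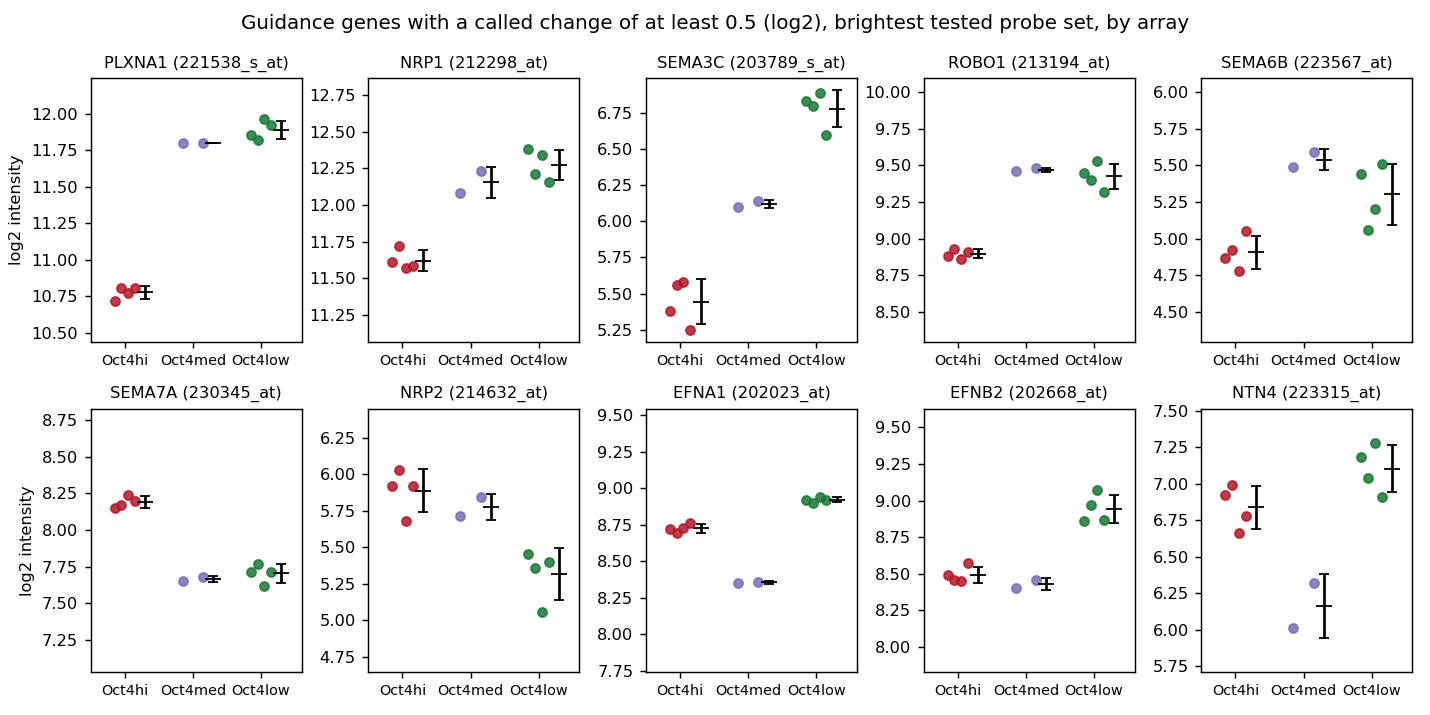
Deposited log2 intensity (y axis) of 10 guidance genes in each of the 4 Oct4hi, 2 Oct4med and 4 Oct4low arrays (x axis, 1 point an array, with the subset mean and SD beside them, and a y range that differs by panel). PLXNA1, NRP1 and ROBO1 show Oct4hi arrays alone at the bottom, SEMA3C steps up through all 3 subsets, and EFNA1 and NTN4 have their lowest values in the Oct4med arrays.

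Of the secreted semaphorins, SEMA3C showed the largest change of any guidance probe set between Oct4hi and Oct4low BCCs. SEMA3C is a class 3 semaphorin that signals through both neuropilins and A- or D-type plexins. SEMA3C (203789_s_at) read 5.38, 5.56, 5.58 and 5.25 in Oct4hi BCCs, 6.10 and 6.14 in Oct4med BCCs, and 6.83, 6.80, 6.89 and 6.60 in Oct4low BCCs. The subsets formed 3 separate steps with no overlap. The change was -1.34 (SE 0.09, adjusted p = 1.18e-06) for Oct4hi against Oct4low BCCs, which is 0.395 of the Oct4low level. It was -0.66 (SE 0.11, adjusted p = 0.00183) for Oct4med against Oct4low BCCs and -0.68 (SE 0.11, adjusted p = 0.00135) for Oct4hi against Oct4med BCCs. The dimmer probe set 203788_s_at gave -0.67 for Oct4hi against Oct4low BCCs and reached the array median on 3 arrays, all Oct4low, so this value is a description. SEMA3G was tested and not called (-0.15 against Oct4low BCCs, adjusted p = 0.239), and SEMA3A and SEMA3F stayed below the array median in all 10 arrays and were not tested.

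The start regions of PLXNA1 and SEMA3C are shown because these genes had the largest reductions in Oct4hi BCCs, and EFNB2 because it was lower in both Oct4hi and Oct4med BCCs. Each is the RefSeq sequence (GRCh38.p14) of 250 bases before the gene start and 50 from it, 5′ to 3′ on the gene's strand. PLXNA1 lies at chr3:126982865-126983164 on the plus strand, SEMA3C at chr7:80922340-80922639 on the minus strand and EFNB2 at chr13:106535613-106535912 on the minus strand. Capitals mark GC boxes, CCAAT boxes and TATA letters, each searched on both strands.
PLXNA1: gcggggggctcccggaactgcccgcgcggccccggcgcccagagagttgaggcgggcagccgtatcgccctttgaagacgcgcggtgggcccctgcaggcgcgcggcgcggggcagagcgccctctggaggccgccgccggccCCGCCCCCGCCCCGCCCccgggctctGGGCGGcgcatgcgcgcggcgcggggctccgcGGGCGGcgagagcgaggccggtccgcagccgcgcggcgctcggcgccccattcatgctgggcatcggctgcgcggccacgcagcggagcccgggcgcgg
SEMA3C: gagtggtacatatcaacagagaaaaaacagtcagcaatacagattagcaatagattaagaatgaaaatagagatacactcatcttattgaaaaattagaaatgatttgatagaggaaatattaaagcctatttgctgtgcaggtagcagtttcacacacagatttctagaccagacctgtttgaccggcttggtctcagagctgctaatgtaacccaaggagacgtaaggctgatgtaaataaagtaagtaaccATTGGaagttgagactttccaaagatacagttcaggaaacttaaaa
EFNB2: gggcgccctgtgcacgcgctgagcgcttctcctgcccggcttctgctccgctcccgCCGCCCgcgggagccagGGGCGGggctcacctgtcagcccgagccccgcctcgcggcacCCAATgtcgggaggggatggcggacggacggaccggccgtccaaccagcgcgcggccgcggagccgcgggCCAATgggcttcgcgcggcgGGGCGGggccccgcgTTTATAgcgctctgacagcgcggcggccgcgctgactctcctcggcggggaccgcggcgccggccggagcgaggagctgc
The PLXNA1 window was 83% G and C and held 5 GC boxes, partly overlapping, the SEMA3C window was 36% G and C with 1 CCAAT box and no GC box, and the EFNB2 window was 78.7% G and C with 3 GC boxes, 2 CCAAT boxes and 1 TATA match. Over the 45 guidance genes with an entry the median was 64.3%, against 58.3% over all 27305 promoters. A GC box, read as GGGCGG, was in 33 of the 45 guidance windows and in 44.6% of all. A CCAAT box, the letters of its name, was in 16 of the 45 and in 35.7% of all. The TATA match, read as TATAAA, was in 2 of the 45 and in 12% of all. The octamer ATGCAAAT, the sequence for which the Oct family is named, was in 1 of the 45 (SEMA3F) and in 1.8% of all. These letters describe the windows and were not measured for binding.

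Among the membrane semaphorins 12 probe sets were tested, and 4 were higher and 3 lower in Oct4hi than in Oct4low BCCs, where the shares over all tested probe sets were 18.2% and 16.7%. Of these 7, 3 are probe sets that passed the filter only where they were high, and 3 of the 4 higher ones read 1 gene. SEMA5A, a transmembrane semaphorin with thrombospondin repeats, was higher in Oct4hi BCCs by probe sets 213169_at and 205405_at. The widest change was in 213169_at, with 5.91, 6.37, 6.47 and 5.76 in Oct4hi BCCs, 5.17 and 4.93 in Oct4med BCCs, and 5.14, 5.23, 5.16 and 5.19 in Oct4low BCCs. Oct4hi values were the most scattered and all lay above the other subsets, whose values overlapped near the array median. The change was 0.95 (SE 0.14, adjusted p = 3.85e-04) against Oct4low BCCs and 1.08 (SE 0.17, adjusted p = 9.39e-04) against Oct4med BCCs. The second call was lost with the methods' t-test (adjusted p = 0.0841). Probe set 205405_at gave 0.44 (adjusted p = 0.00257) against Oct4low BCCs and 0.41 (adjusted p = 0.0153) against Oct4med BCCs, the second not called without Oct4med replicate 1 (adjusted p = 0.102). The third, 229427_at, reached the array median on the 4 Oct4hi arrays alone, and its differences of 0.80 and 0.92 are a description. None of the 3 differed by the test between Oct4med and Oct4low BCCs (-0.13 to 0.03).

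SEMA7A, a lipid-anchored semaphorin that binds PLXNC1 and integrins, was higher in Oct4hi BCCs by 1 of 2 probe sets. That probe set, 230345_at, read 8.15, 8.17, 8.24 and 8.20 in Oct4hi BCCs, 7.65 and 7.68 in Oct4med BCCs, and 7.71, 7.77, 7.62 and 7.71 in Oct4low BCCs. The Oct4hi arrays were separated from all others, and the Oct4med values lay inside the Oct4low range. The change was 0.49 (SE 0.07, adjusted p = 1.95e-04) against Oct4low BCCs and 0.53 (SE 0.08, adjusted p = 6.95e-04) against Oct4med BCCs, with -0.04 between Oct4med and Oct4low BCCs (adjusted p = 0.781). The second probe set, 210083_at, gave 0.04, -0.11 and 0.15 in the same comparisons, and none was called.

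SEMA6B, a transmembrane semaphorin, read 4.87, 4.92, 4.78 and 5.05 in Oct4hi BCCs, 5.49 and 5.59 in Oct4med BCCs, and 5.44, 5.06, 5.20 and 5.51 in Oct4low BCCs. Its Oct4hi values lay under the array medians, and only a small gap parted them from the lowest Oct4low array. The probe set thus passed the filter through Oct4med and Oct4low arrays alone. Its Oct4hi level was lower by 0.40 than in Oct4low BCCs (SE 0.10) and by 0.63 than in Oct4med BCCs (SE 0.13), and both values are given as a description. With the filter on the mean over all arrays both differences were called. SEMA4D, the ligand of PLXNB1, was lower by 0.38 against Oct4low BCCs (adjusted p = 0.0126) and by 0.42 against Oct4med BCCs (adjusted p = 0.027), the second of which was lost without Oct4med replicate 1 (adjusted p = 0.385) and without Oct4hi replicate 1 or replicate 4 (adjusted p = 0.0612 and 0.0527). SEMA6D, which reached the median on 1 Oct4med and 1 Oct4low array alone, gave -0.30 in Oct4hi against Oct4low BCCs, which is given as a description because only arrays where it was high carried it past the filter.

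SEMA4C, which binds B-type plexins, had its highest values in Oct4med BCCs by both probe sets. Probe set 46665_at read 9.70, 9.79, 9.79 and 9.78 in Oct4hi BCCs, 10.16 and 10.18 in Oct4med BCCs, and 9.88, 9.98, 9.91 and 9.95 in Oct4low BCCs, with the 3 subsets apart. Against Oct4med BCCs the Oct4hi level differed by -0.40 (adjusted p = 0.00336) and, by 219039_at, by -0.42 (adjusted p = 0.00686), the second lost without Oct4med replicate 1 (adjusted p = 0.0882). Oct4med BCCs passed narrowly against Oct4low BCCs, with 0.24 (adjusted p = 0.0489) and 0.29 (adjusted p = 0.0454), and each of these calls was lost under 16 of 21 alternatives, among them the omission of either Oct4med array (adjusted p = 0.139 and 0.134 for 46665_at, and 0.283 and 0.0538 for 219039_at) or of any one other array (adjusted p = 0.0519 to 0.087). SEMA6A and SEMA6C were not called in any comparison (-0.13 to 0.13).

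The ephrins were lower in Oct4hi BCCs in 3 of 4 tested probe sets, which read EFNA1, EFNB2 and EFNB3, and lower in Oct4med BCCs in 3 of 4, which read EFNA1 and EFNB2, both against Oct4low BCCs. Of all tested probe sets 16.7% and 15.5% were lower in these comparisons. EFNA1, a lipid-anchored ephrin that binds EphA receptors, read 8.72, 8.69, 8.73 and 8.76 in Oct4hi BCCs, 8.35 and 8.36 in Oct4med BCCs, and 8.92, 8.90, 8.94 and 8.92 in Oct4low BCCs. Each subset occupied its own narrow band, with Oct4med lowest. The change was -0.56 (SE 0.07, adjusted p = 2.90e-04) for Oct4med against Oct4low BCCs and 0.37 (SE 0.07, adjusted p = 0.00411) for Oct4hi against Oct4med BCCs, the second 0.22 and not called after a further quantile normalization (adjusted p = 0.0593). For Oct4hi against Oct4low BCCs it was -0.20 (SE 0.06, adjusted p = 0.0261), and that call was lost without Oct4hi replicate 1 or replicate 2 (adjusted p = 0.0602 and 0.0707), without Oct4low replicate 2 or replicate 4 (adjusted p = 0.0549 and 0.0503), and under 3 other alternatives (up to 0.104).

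EFNB2, a transmembrane ephrin that marks arterial endothelium and binds EphB receptors and EPHA4, read 8.49, 8.46, 8.45 and 8.57 in Oct4hi BCCs, 8.40 and 8.46 in Oct4med BCCs, and 8.86, 8.97, 9.07 and 8.87 in Oct4low BCCs (202668_at). The Oct4low arrays stood above both other subsets, which overlapped. The change was -0.45 (SE 0.07, adjusted p = 6.98e-04) for Oct4hi and -0.51 (SE 0.09, adjusted p = 0.00177) for Oct4med BCCs. The second probe set, 202669_s_at, was lower in Oct4med BCCs (-0.52, adjusted p = 0.00843) and not called in Oct4hi BCCs (-0.14, adjusted p = 0.293), and it was higher in Oct4hi than in Oct4med BCCs (0.38, adjusted p = 0.0302). Both of its calls were lost without Oct4med replicate 1 (adjusted p = 0.109 and 0.33), and the last also without Oct4hi replicate 2 or replicate 4 (adjusted p = 0.0535 and 0.0645). EFNB3, another transmembrane ephrin, was lower in Oct4hi BCCs by 0.34 against Oct4low (adjusted p = 0.0112) and by 0.46 against Oct4med BCCs (adjusted p = 0.00988, and 0.123 without Oct4med replicate 1).

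EPHA4, an Eph receptor that binds both A- and B-type ephrins, was the one tested receptor of its family with calls. Probe set 206114_at read 7.31, 7.22, 7.16 and 7.07 in Oct4hi BCCs, 6.71 and 6.81 in Oct4med BCCs, and 6.81, 6.89, 6.69 and 6.87 in Oct4low BCCs. The Oct4hi arrays lay above all others, and the Oct4med and Oct4low arrays shared a range. EPHA4 was higher in Oct4hi than in Oct4low BCCs by this probe set (0.37, SE 0.08, adjusted p = 0.00308) and by 228948_at (0.50, adjusted p = 0.00873), and 227449_at gave 0.26 (adjusted p = 0.0513). Against Oct4med BCCs all 3 were higher, by 0.43, 0.67 and 0.75 (adjusted p = 0.0064, 0.00788 and 7.98e-04). Without Oct4med replicate 1 the first and second of these were not called (adjusted p = 0.072 and 0.141). Probe set 227449_at was also lower in Oct4med than in Oct4low BCCs (-0.49, adjusted p = 0.0112, and 0.141 without Oct4med replicate 1). EPHA1 and EPHA8 had no called change (-0.37 to 0.25).

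Of the slit receptors, ROBO1 was lower in Oct4hi BCCs. ROBO1 (213194_at) read 8.88, 8.93, 8.86 and 8.91 in Oct4hi BCCs, 9.46 and 9.48 in Oct4med BCCs, and 9.45, 9.40, 9.53 and 9.32 in Oct4low BCCs. The Oct4med values lay inside the Oct4low range and the Oct4hi values well below it. The change was -0.53 (SE 0.07, adjusted p = 1.56e-04) against Oct4low BCCs and -0.57 (SE 0.08, adjusted p = 5.63e-04) against Oct4med BCCs, with 0.04 between Oct4med and Oct4low BCCs (adjusted p = 0.766). ROBO3 was higher in Oct4hi than in Oct4med BCCs (0.27, adjusted p = 0.0335), and this was lost without Oct4hi replicate 1 or replicate 4 (adjusted p = 0.0676 and 0.0703) or Oct4med replicate 1 (adjusted p = 0.258), and after a further quantile normalization (0.13, adjusted p = 0.264). ROBO4, the endothelial robo, was not called (-0.01 to 0.16). The ligands SLIT1, SLIT2 and SLIT3 had changes of -0.01, 0.12 and 0.04 in Oct4hi against Oct4low BCCs, none called. SLIT2 was higher in Oct4med than in Oct4low BCCs (0.30, adjusted p = 0.0427), a call lost under 14 of 19 alternatives, among them the omission of Oct4med replicate 2 (adjusted p = 0.241), of Oct4low replicate 2 (adjusted p = 0.0873), and of Oct4hi replicate 1, 2 or 3 or Oct4low replicate 1 or 3 (adjusted p = 0.0503 to 0.084).

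The netrins showed their main difference in Oct4med BCCs. NTN4, a netrin of basement membranes that binds laminin, read 6.92, 6.99, 6.66 and 6.78 in Oct4hi BCCs, 6.01 and 6.32 in Oct4med BCCs, and 7.18, 7.04, 7.28 and 6.91 in Oct4low BCCs. Both Oct4med arrays were the lowest, while Oct4hi and Oct4low arrays overlapped. NTN4 fell by 0.94 in Oct4med against Oct4low BCCs (SE 0.13, adjusted p = 4.22e-04), to 0.523 of that level, and was higher by 0.67 in Oct4hi than in Oct4med BCCs (SE 0.13, adjusted p = 0.00339, and 0.0642 without Oct4med replicate 1). Between Oct4hi and Oct4low BCCs the difference of -0.27 missed the threshold (adjusted p = 0.0732) and passed it without Oct4low replicate 4 (adjusted p = 0.0438).

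NTN1, the founding netrin, had probe sets called in opposite directions between Oct4hi and Oct4med BCCs, 0.36 by 227816_at (adjusted p = 0.0242) and -0.27 by 237847_at (adjusted p = 0.0354). Both calls were lost without Oct4med replicate 1 (adjusted p = 0.248 and 0.28) and without Oct4hi replicate 4 (adjusted p = 0.0552 and 0.0752), the first also without Oct4hi replicate 2 (adjusted p = 0.0521) and the second without Oct4hi replicate 1 (adjusted p = 0.0684). NTNG2, a membrane-anchored netrin-G, was lower in Oct4hi than in Oct4low BCCs by 0.26 (adjusted p = 0.0314), a call lost under 8 of 20 alternatives, among them without Oct4hi replicate 1 (adjusted p = 0.0986), Oct4hi replicate 4 (adjusted p = 0.0507) or Oct4low replicate 2 (adjusted p = 0.101). NTN5 and NTNG1 were not called (-0.19 to 0.04). The dependence receptors UNC5A and UNC5B, through which netrins repel cells, had no called change in any comparison, with UNC5B at -0.15, 0.08 and -0.23 for Oct4hi against Oct4low, Oct4med against Oct4low and Oct4hi against Oct4med BCCs.

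Over the 3 subsets together, 33 of the 56 guidance probe sets differed by limma's F-test (58.9%), where 44.4% of all tested probe sets did. Among them are 229427_at of SEMA5A, 222877_at of NRP2, 203788_s_at of SEMA3C, 244746_at of SEMA6D and the probe set of SEMA6B. For these a difference was built into their selection, and the F-test was not repeated with the filter on the mean, so the shares are a description. The means of these 33 ran Oct4hi, Oct4low, Oct4med from high to low in 9 probe sets, Oct4med, Oct4low, Oct4hi in 8, Oct4low, Oct4med, Oct4hi in 7, Oct4hi, Oct4med, Oct4low in 4, Oct4low, Oct4hi, Oct4med in 4 and Oct4med, Oct4hi, Oct4low in 1. Oct4med BCCs were thus the middle subset in 11 of the 33. The same orders were not counted over all tested probe sets, so no share stands beside these counts. These orders are a description, since neighbouring means often differed by less than their spread, as for SEMA7A between Oct4med and Oct4low BCCs.

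**Figure D3:**
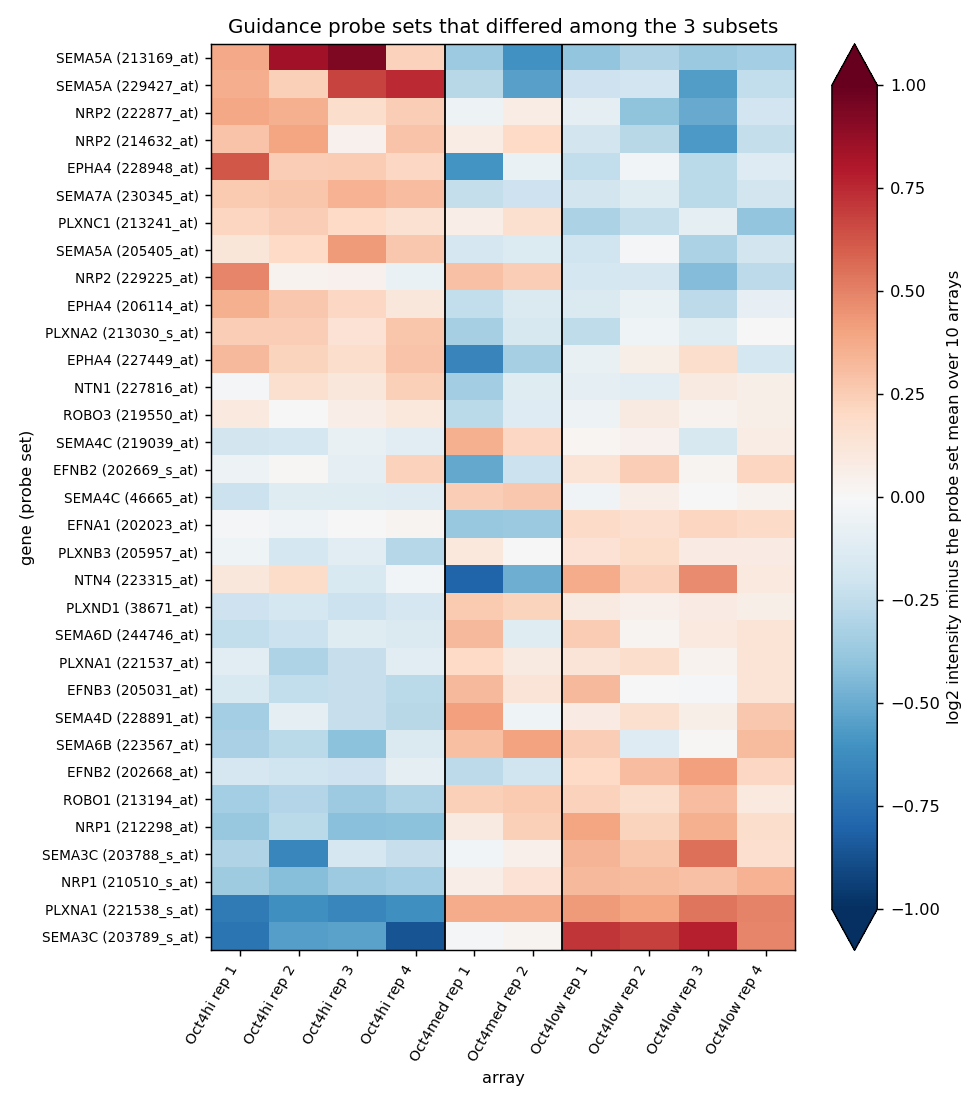
Log2 intensity of the 33 guidance probe sets that differed among the subsets (rows, sorted by the difference between Oct4hi and Oct4low BCCs), each minus its mean over all 10 arrays, for the 4 Oct4hi, 2 Oct4med and 4 Oct4low arrays (columns), with colours running from -1 to 1. The SEMA5A rows are highest in the Oct4hi arrays, the SEMA3C and PLXNA1 rows lowest there, and the NTN4 and EFNA1 rows are lowest in the Oct4med arrays.

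In all, 14 genes had more than 1 tested probe set, which gave a check within the array. Between Oct4hi and Oct4low BCCs, NRP1, PLXNA1, SEMA3C and SEMA5A were called by every tested probe set in 1 direction, 6 genes by some, 4 by none and 0 in opposite directions. For SEMA3C and SEMA5A that set holds the probe set that passed the filter only where it was high, which leaves 1 and 2 others. Between Oct4med and Oct4low BCCs, EFNB2 and SEMA4C were called by every probe set, 4 genes by some and 8 by none. Between Oct4hi and Oct4med BCCs the counts were 5 by every probe set, 4 by some and 4 by none, and NTN1 was the 1 gene with opposite calls. SEMA5A is among the 5, and its probe set 229427_at passed the filter only through Oct4hi arrays. Probe sets of a gene can read different transcript ends, and which transcripts each one reads was not examined.

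**Figure D4:**
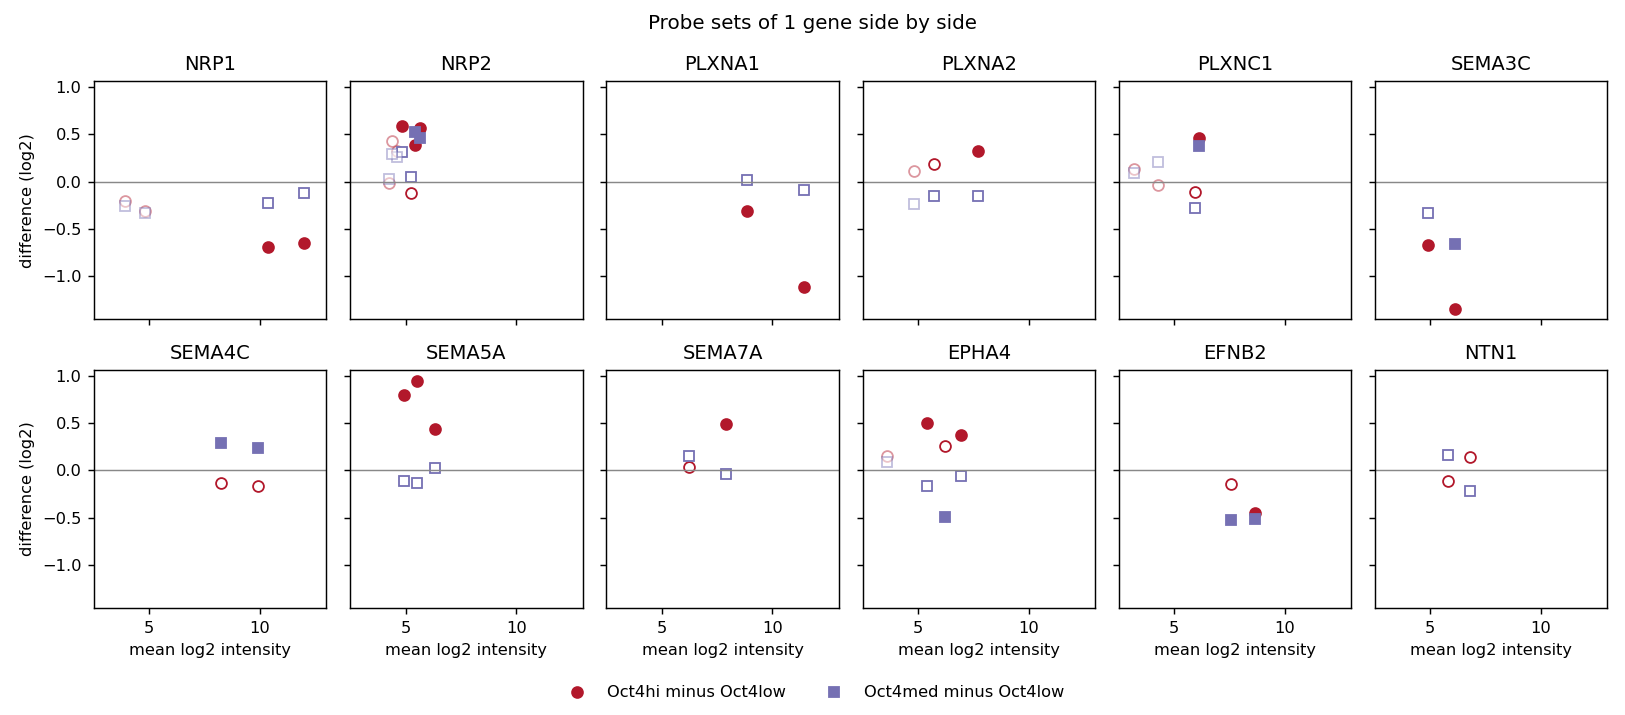
Difference in mean log2 intensity (y axis) against mean log2 intensity over all 10 arrays (x axis) for the probe sets of genes measured by several, with Oct4hi minus Oct4low BCCs as circles and Oct4med minus Oct4low BCCs as squares. Filled points were called, open points were not and pale open points were not tested; both PLXNA1 probe sets lie below 0 for Oct4hi BCCs, at -1.11 and -0.31.

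Partners that carry guidance signals inside the cell were followed through 4 lists of 96 genes, of which 62 were in the table and 51 were tested by their brightest probe set. Single list genes were not checked for a filter passed through a single subset, and were not followed singly through the alternatives. Their adjusted p-values are thus less checked than those of the guidance genes. Between Oct4hi and Oct4low BCCs 17 of the 51 differed, 11 higher and 6 lower, where 35.2% of all tested genes did, 20.4% upward and 14.7% downward. Between Oct4med and Oct4low BCCs 15 differed, 4 higher and 11 lower, where 17.4% of all tested genes did, 5.68% upward and 11.7% downward. Between Oct4hi and Oct4med BCCs 15 differed, 13 higher and 2 lower, where 27.8% of all tested genes did, 18.2% upward and 9.62% downward.

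On the netrin and UNC5 list, 7 of 15 genes differed between Oct4hi and Oct4low BCCs, 5 higher and 2 lower. Of all tested genes 35.2% differed in that comparison, so the count is a description. DAPK1, a death-associated kinase that binds UNC5 receptors, averaged 7.06 ± 0.14 in Oct4hi BCCs and 4.91 ± 0.36 in Oct4low BCCs (SD, n = 4 each), a change of 2.15 (SE 0.15, adjusted p = 9.64e-07). That Oct4low mean lay under every array median. DAPK1 was also higher in Oct4hi than in Oct4med BCCs (1.75, adjusted p = 4.17e-05). NEO1, the netrin receptor neogenin, was higher in Oct4hi BCCs against both Oct4low (0.58, adjusted p = 2.27e-04) and Oct4med BCCs (0.47, adjusted p = 0.00456). The FLRT proteins, surface ligands of UNC5 receptors, moved apart, FLRT1 by 0.57 (adjusted p = 6.57e-04) and FLRT2 by -0.61 (adjusted p = 4.85e-04) in Oct4hi against Oct4low BCCs. In Oct4med BCCs, TRIO, a guanine exchange factor downstream of netrin receptors, was lower than in Oct4low BCCs (-1.23, adjusted p = 7.81e-04), and the adenosine receptor ADORA2B had a change of -0.71 (adjusted p = 7.40e-05).

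On the semaphorin and plexin list, 5 of 16 genes differed between Oct4hi and Oct4low BCCs, 2 higher and 3 lower. The share of all tested genes, 35.2%, belongs beside this count and those of the ephrin and slit lists below in that comparison. Among the 5 were the kinase GSK3B (-0.40, adjusted p = 0.00334), the kinase FYN (0.32, adjusted p = 0.0112), the integrin ITGA1 (-0.31, adjusted p = 0.0269) and DPYSL2, the collapsin response mediator that relays SEMA3A signals (-0.23, adjusted p = 0.042). On the ephrin and Eph list, 2 of 13 differed, the ephrin-shedding protease ADAM10 (0.42, adjusted p = 5.68e-04) and the phosphatase ACP1 (0.30, adjusted p = 0.00484). In Oct4med against Oct4low BCCs the same list had 3 called genes, all lower, the kinase ABL2 (-0.70, adjusted p = 1.48e-04), the endocytic scaffold ITSN1 (-0.41, adjusted p = 0.0238) and the focal adhesion kinase PTK2 (adjusted p = 0.00685). Of all tested genes 11.7% were lower there. PTK2 averaged 5.50 ± 0.27 in Oct4med BCCs (SD, n = 2) and 6.51 ± 0.30 in Oct4low BCCs (SD, n = 4). On the slit and robo list, 3 of 7 differed between Oct4hi and Oct4low BCCs, the microtubule plus-end protein CLASP1 (-0.44, adjusted p = 0.00175), the actin regulator EVL (0.39, adjusted p = 8.23e-04) and the cyclase-associated actin protein CAP2 (0.33, adjusted p = 0.0177). CLASP1 averaged 5.07 in Oct4hi and 5.50 in Oct4low BCCs, near the array medians. SRGAP2, a GTPase-activating protein that binds ROBO1, averaged 6.15 ± 0.58 in Oct4med BCCs (SD, n = 2) and 7.28 ± 0.25 in Oct4low BCCs (SD, n = 4), a change of -1.13 (adjusted p = 0.00698).

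The 38 untested probe sets had mean levels of 2.78 to 4.94, against 4.84 to 11.99 for the tested ones, and 15 genes had no tested probe set. Among these were SEMA3A and SEMA4A, the receptors EPHA3, EPHA5, EPHB1, EPHB6, PLXNA3, PLXNA4 and UNC5C, the ephrin EFNA2 and 3 antisense transcripts. The differences of all 38 untested probe sets ranged from -0.46 to 0.43 between Oct4hi and Oct4low BCCs. They ranged from -0.36 to 0.33 between Oct4med and Oct4low BCCs and from -0.34 to 0.34 between Oct4hi and Oct4med BCCs, and no call was made at this signal. Of the 56 tested probe sets, 42 lay at or above the array median in all 10 arrays and 14 in only some of them.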

How the data were processed

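Total RNA of sorted MDA-MB-231 subsets was hybridised to 10 arrays (4 Oct4hi, 2 Oct4med and 4 Oct4low). The deposited values are log2 intensities per probe set that the authors made by RMA, by the submitters' processing notes, which corrects background, quantile normalizes and summarises probes; the methods name BRB-Array Tools. Per-array precision is limited by the number of arrays. The methods also remove probe sets dim on many arrays or barely changing between arrays, and the table has exactly the number of rows they say was left, so shares called refer to a preselected set and a marker that is not in the table was not analysed here. Values ran from 2.37 to 14.46 and were used as deposited, without the 23 manufacturer control probe sets. Probe sets with 1 platform symbol (18682) were named by it, those with several (799) or none (6269) were not, and all 94 members matched RefSeq by gene ID. Columns with no sample numbered 0.

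Tested were probe sets that reached the median of an array on 2 or more arrays. The test was limma (version 3.58.1, R 4.3.3), all 10 arrays in 1 fit with a mean per subset, two-sided, with Benjamini-Hochberg adjustment over all tested probe sets and a threshold of 0.05. No detection calls were used. The fit was tested on simulated data. Array values were given in full for the brightest tested probe set of each gene called with a change of at least 0.5 in any comparison, and for others chosen after their values were seen; lists were counted by the brightest probe set of each gene. The comparisons share arrays. Members, lists and tests were chosen with earlier results of these data known. Alternatives covered filters, scaling, weights, prior, samples in the fit, the methods' t-test (run with a variance per probe set, without the random variance model the methods name), a replicate block, probe set kind and leaving out each array.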

Additional observations from a re-analysis of the deposited data

Results flagged for a closer look

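Among the 36 guidance probe sets called in at least 1 comparison, 72 groups of 4 arrays were checked for a single array far from the other 3, and 3 stood out, where chance alone marks about 1 group in 20. EPHA4 (228948_at) read 6.02 in Oct4hi replicate 1, against 5.60 to 5.65 in the other Oct4hi arrays. SEMA4C (46665_at) read 9.70 in Oct4hi replicate 1, against 9.78 to 9.79 in the other Oct4hi arrays. SEMA5A (229427_at) read 4.36 in Oct4low replicate 3, against 4.67 to 4.72 in the other Oct4low arrays.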

How the results depend on the processing

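Of 65 called changes of single guidance probe sets followed through the alternatives, 36 kept their call and direction under every one that could be fitted and 29 lost the call under at least 1, with none turning direction. Kept calls numbered 22 of 27 for Oct4hi against Oct4low BCCs, 4 of 12 for Oct4med against Oct4low BCCs and 10 of 26 for Oct4hi against Oct4med BCCs. The 22 include 229427_at of SEMA5A, 222877_at of NRP2 and 203788_s_at of SEMA3C, whose difference was built into their selection. The stricter filter and the filter on the mean over all arrays left these probe sets out, so neither could unseat their calls. The 10 include SEMA6B, whose difference was built into its selection too. The count for Oct4hi against Oct4low BCCs was 15 of 24 probe sets under the stricter filter and 24 to 28 when an array was left out. For Oct4med against Oct4low BCCs it was 7 with array weights, 7 with the methods' t-test, 7 of 47 without probe sets of suffix _x_at or _s_at, and 6 to 10 when an array was left out. For Oct4hi against Oct4med BCCs it was 15 with the methods' t-test, 17 of 38 genes by their brightest probe set, and 13 to 29 when an array was left out. Fewer probe sets were tested under the filter, suffix and brightest-probe-set settings. Calls over all tested probe sets fell too with the methods' t-test, to 28.3%, 7.99% and 13.4% in the 3 comparisons, in place of 34.8%, 20.6% and 26.7%. Of all tested genes by their brightest probe set, 27.8% differed between Oct4hi and Oct4med BCCs. Such shares were not taken for the stricter filter, the suffix setting, array weights or left-out arrays. The guidance counts in those settings thus have no share beside them. The cause of the changes in these counts was not tested. At the methods' limit of 0.001, its t-test, run here without the random variance model, called 10, 1 and 7 of 56 guidance probe sets in the 3 comparisons, and 1718, 493 and 776 of all 13883. Uncalled changes that turned sign after a further quantile normalization were 0.05 for SEMA7A, 0.05 for NRP1 and 0.01 for PLXNA1 in Oct4med against Oct4low BCCs, and -0.07 for EFNB2 in Oct4hi against Oct4med BCCs. SEMA6B against Oct4low BCCs had an adjusted p of 0.0544 by the methods' t-test. For single genes above, mostly the calls lost on leaving out an array are named. Other settings removed calls too, such as that of 221537_at of PLXNA1 between Oct4hi and Oct4med BCCs with the methods' t-test (adjusted p = 0.0758).

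Replicate numbers in the titles were used as a block in an added fit. Same-numbered arrays of different subsets did not deviate together (r of -0.265 to 0.277 over 8 pairs, 2 of them over 0.1), so the numbers were taken not to pair the samples. Arrays with other numbers had r of -0.508 to 0.508. Deviations were taken from subset means, so an r with Oct4med replicate 1 returns with turned sign for Oct4med replicate 2. Between Oct4hi and Oct4low arrays alone, r was -0.211 to 0.277 for same numbers and -0.314 to 0.413 for other numbers. The methods describe RNA from separate experiments, and the labels do not say which arrays shared one. The main fit treats the arrays as independent, and shared runs were not tested. With the replicate block the guidance counts were 26, 8 and 20 for Oct4hi against Oct4low, Oct4med against Oct4low and Oct4hi against Oct4med BCCs. Of all tested probe sets 31.9%, 11.2% and 16.1% differed in that fit. The pathway lists then had 9 called genes in Oct4med against Oct4low BCCs in place of 15. A pair of Oct4med arrays, and signals near the array median in 14 tested probe sets, limit what these values show.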
